A study of Sus scrofa with 6 samples.

Results

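Solute carriers and ATP-binding cassette (ABC) transporters are the 2 large families of proteins that move small molecules across cell membranes. The genes described here are those of the pig whose symbol is SLC followed by a digit, or ABC followed by a letter from A to G and a digit. This rule found 88 of the 4122 genes that the tables list, 84 with an SLC and 4 with an ABC symbol, and all 88 symbols match a current symbol of the reference annotation. The rule reads the symbol and no measured value. A pair of the 88, SLC9A3R1 and SLC9A3R2, code for scaffold proteins that bind transporters and are not carriers themselves.

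Many solute carriers use ion gradients or exchange to carry amino acids, sugars, peptides, nucleotides, vitamins and metal ions. Most ABC proteins instead use ATP to pump lipids, drugs or peptides. In lymphoid tissue, dividing lymphocytes need amino acid, lactate and nucleotide-sugar transport, and phagocytes use metal carriers at the phagosome. Carriers of the SLC25 family sit in the inner mitochondrial membrane.

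RNA was sequenced from lymph node, spleen and thymus of RAG2 biallelic knockout pigs and of wild-type littermates, all aged 3 months, with 1 library for each tissue and genotype and 6 libraries in all. RAG2 belongs to the recombinase that assembles lymphocyte antigen receptors, and by the series title these SCID pigs carry a deletion of 1 amino acid. The labels give neither the breed nor the sex, nor whether the tissues of a genotype came from the same animal. With 1 library a group, differences have no replicates behind them, so sizes are given without p-values. Levels are in FPKM, fragments per kilobase of transcript scaled to the depth of the library. A gene counts as measured in a tissue at 1 FPKM or more in at least 1 of its libraries, and as called higher or lower at a log2 ratio of knockout over wild type, with 1 FPKM added to each level, of 1 or more, up or down. A fold is the ratio of the 2 libraries' fragment counts after scaling, and its 95% Clopper-Pearson interval covers counting error only. In bulk tissue, fewer cells of a type and less RNA per cell cannot be told apart.

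Fragments assigned to listed genes numbered between 1922563 and 2541724 per library, and transporter genes took between 0.57 and 0.76% of them. Cell-type marker lists, chosen with earlier results of these data known, differed between the genotypes. Lower calls in the knockout took in 6 T-cell markers of 6 for lymph node, 3 for spleen and 4 for thymus, and 4, 4 and 2 of the 4 B-cell markers. The neutrophil list was higher in 4 of 4 genes in each tissue. The adipocyte list was higher in all 7 genes in lymph node and in 5 of 6 measured in thymus. In spleen 1 of its 4 measured genes was higher and 1 lower. The dividing-cell list was lower in 6 of 7 in lymph node, 1 of 7 in thymus and 0 of 7 in spleen. Endothelial markers were higher in 2 of 4 in lymph node, 0 in spleen and 4 in thymus. Of 5 smooth muscle markers, 4 were higher in lymph node, 1 lower in spleen and 1 higher in thymus. Erythroid markers were higher in 1 of 2 measured in lymph node and 3 of 3 in thymus, with 1 higher and 1 lower of 3 in spleen. The thymus marker list summed to 5765 and 9232 FPKM in the thymus libraries and to at most 11.5 FPKM in any other. The part of any of these lists in a transporter result was not tested.

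Of the 88 genes, 66 were measured in at least 1 tissue and 56 in all 3. A further 14 had fragments but stayed under 1 FPKM throughout, among them the glucose carriers SLC2A2 and SLC2A4, with 1 fragment each. The remaining 8 were listed at 0 in all 6 libraries: SLC10A2, SLC13A2, SLC22A8, SLC25A6, SLC26A3, SLC30A3, SLC34A1 and SLC39A2. SLC25A6 codes for an ADP/ATP carrier of mitochondria that most cells use, and is therefore described only as listed at 0. By counting alone a 0 allows up to 3 fragments, or 1.18 to 1.56 per 1000000 listed fragments.

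In lymph node 9 of 61 measured transporter genes were higher in the knockout and 7 lower, beside 15.3% higher and 10.3% lower among all 2910 measured genes. With an interval that excluded equal levels there were 7 higher and 7 lower, against 13.1 and 8.87% of all genes. In spleen 4 of 56 were higher and 2 lower, all with such an interval, beside 8.88 and 10% by size, and 7.48 and 8.42% with the interval. In thymus 10 of 62 were higher and 3 lower, or 8 and 2 with the interval, beside 15.2 and 10.9% by size and 13.5 and 8.53% with the interval. The shares of transporter genes were 14.8 and 11.5% in lymph node, 7.14 and 3.57% in spleen and 16.1 and 4.84% in thymus. The median log2 ratio of transporter genes was 0.14, 0.0243 and 0.0898 in lymph node, spleen and thymus, where all measured genes stood at -0.00456, -0.0159 and -4.72e-05. No call was made for 45, 50 and 49 transporter genes, so the description turns on single members.

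**Figure D1:**
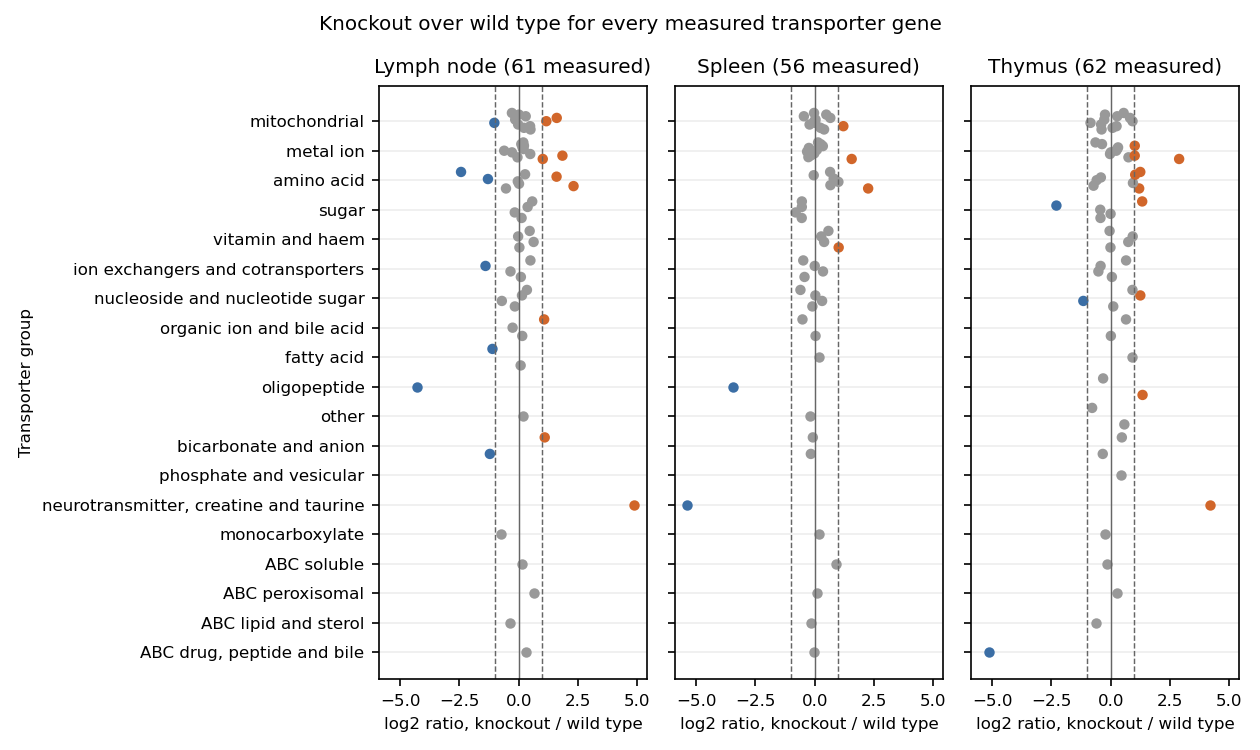
Log2 ratio of knockout over wild type (x axis, FPKM with 1 added) of every measured transporter gene in lymph node, spleen and thymus, by transporter group (y axis); each point is 1 gene, orange is called higher, blue is called lower, and dashed lines mark a ratio of 1 in size. SLC6A8 (4.88 in lymph node, -5.37 in spleen), ABCB1 (-5.14 in thymus) and SLC15A2 (-4.29 in lymph node) lie farthest from 0.

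Over the tissues, 26 members were called in at least 1, of which 24 had an interval that excluded equal levels there. SLC1A3 was called higher in all 3 tissues with such an interval, and no member was called lower in all 3. SLC15A2 was called lower in lymph node and spleen, SLC7A2 higher in lymph node and thymus. SLC6A8 was the only one of the 88 called in opposite directions, higher in lymph node and thymus and lower in spleen.

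**Figure D2:**
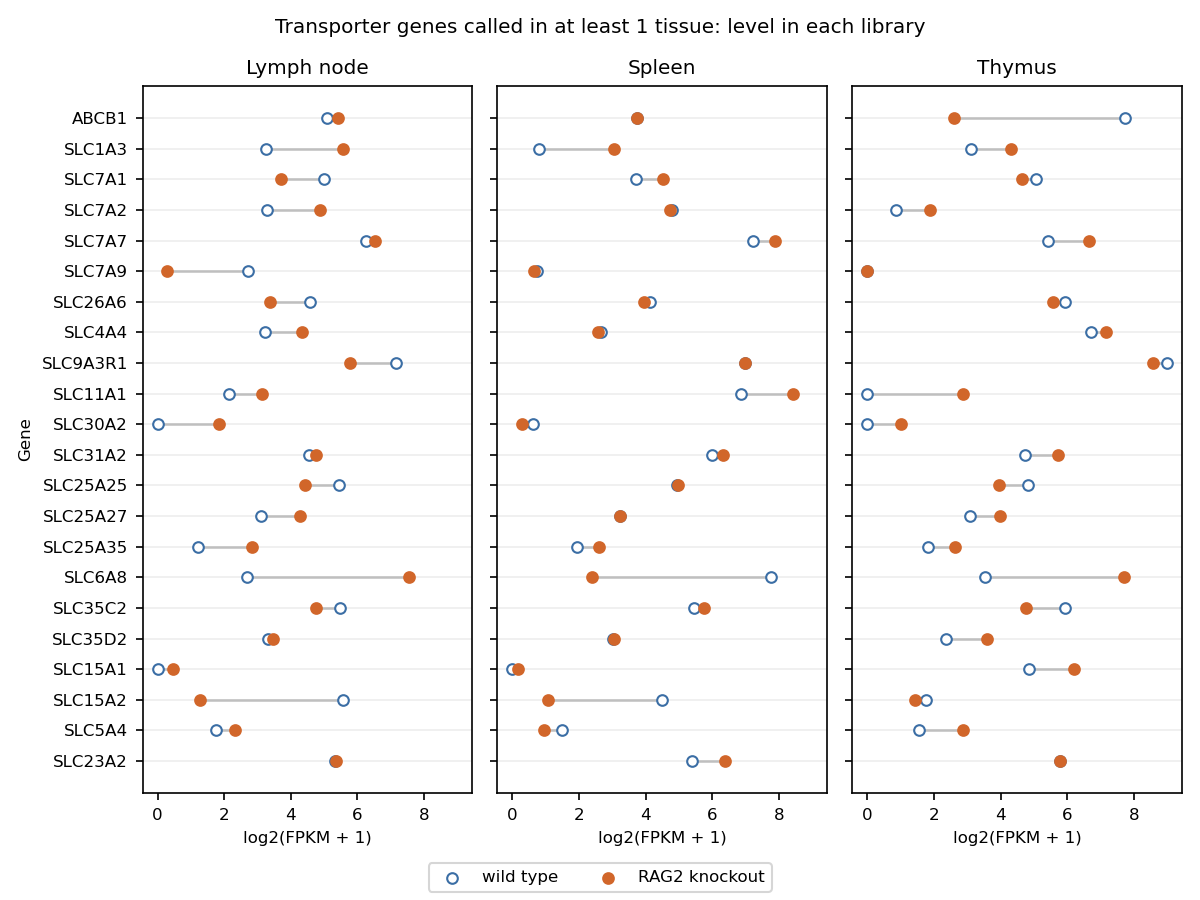
Level of 22 transporter genes in each library, as log2(FPKM + 1) on the x axis, with wild type as open and RAG2 knockout as filled circles and a line joining the 2 libraries of a tissue; shown are members, 1 left out, with a call, an excluding interval and at least 10 fragments in 1 library of that tissue. ABCB1 is called in thymus alone, at 214 and 5.09 FPKM, and SLC1A3 lies farther right in the knockout in each tissue.

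Among ABC proteins, ABCB1 (chromosome 9, 93049955 to 93146469 in Sscrofa11.1), the P-glycoprotein that pumps drugs and other hydrophobic compounds out of cells, stood apart in thymus. Its level was 33.2 FPKM in wild-type and 41.9 FPKM in knockout lymph node, 12.5 and 12.4 FPKM in spleen, and 214 and 5.09 FPKM in thymus. The wild-type thymus was the highest of the 6 libraries and the knockout thymus the lowest. The thymus fold was 42.1 lower in the knockout (32.5 to 55.5, from 2424 to 59 fragments), whereas lymph node was 1.26-fold higher (1.10 to 1.46) and the spleen interval, 0.796 to 1.27 for wild type over knockout, included equal levels. The T-cell list in the same thymus libraries summed to 5468 FPKM in the wild type against 2809 FPKM, and the dividing-cell list to 4107 and 2460.5 FPKM. A long non-coding RNA overlaps ABCB1 in the annotation.

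The other 3 ABC members were not called in any tissue. ABCG2, an efflux pump for drugs and urate, was lower in value in each knockout library, at 46.6 and 35.6 FPKM in lymph node, 20.6 and 18.2 FPKM in spleen and 8.97 and 5.46 FPKM in thymus. Its folds of 1.3 and 1.65 in lymph node and thymus had intervals of 1.08 to 1.57 and 1.05 to 2.62, and that in spleen (1.13, 0.871 to 1.47) included equal levels. ABCD3, a peroxisomal fatty acid transporter, reached 27.5 FPKM in wild-type and 43.2 FPKM in knockout lymph node, a log2 ratio of 0.63. ABCF1, which has no membrane domain and takes part in translation initiation, reached 70.4 and 131 FPKM in spleen, a log2 ratio of 0.88 short of a call, with 70.3 and 77.8 FPKM in lymph node and 106 and 95.2 FPKM in thymus.

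The pair of oligopeptide carriers split by tissue. SLC15A2 (chromosome 13, 138595942 to 138634473), the high-affinity carrier of di- and tripeptides, reached 46.7 FPKM in wild-type lymph node against 1.44 FPKM in the knockout, and 21.7 against 1.11 FPKM in spleen. In thymus it was low in both genotypes, at 2.39 and 1.71 FPKM. The knockout was 32.4-fold lower in lymph node (16.8 to 71.6, from 279 to 9 fragments) and 19.4-fold lower in spleen (9.57 to 45.9, from 133 to 8), while the thymus fold of 1.40 had an interval of 0.6 to 3.36. The B-cell list summed to 1493 and 4.50 FPKM in lymph node, 496 and 6.63 FPKM in spleen and 149.7 and 185 FPKM in thymus, and its part in the SLC15A2 difference was not tested. The gene overlaps EAF2 in the annotation, and the strand setting of the counting is not given in the sources used here.

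SLC15A1 (chromosome 11, 67652808 to 67690457), the peptide carrier best known from the small intestine, had nearly all of its fragments in thymus. It had 0 fragments in wild-type lymph node and spleen and 3 and 1 in the knockout, against 216 and 572 in thymus. Its thymus level went from 28.1 FPKM without to 72.6 FPKM with the knockout, 2.59-fold higher (2.21 to 3.04). Per 1000000 listed fragments the wild-type thymus was 54.5-fold above wild-type lymph node, taking 3 fragments as the floor of a library at 0. The counting interval of this ratio began at 43.9.

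Among amino acid carriers, lymph node had 2 higher and 2 lower of 8 measured, spleen 1 higher of 6, and thymus 3 higher of 7. The shares over all genes were 15.3, 8.88 and 15.2% higher and 10.3, 10 and 10.9% lower in lymph node, spleen and thymus. The amino acid shares rest on 1 to 3 genes. SLC1A3 (chromosome 16, 21873691 to 21965315), a sodium-coupled glutamate and aspartate carrier, was called in every tissue. Lymph node held 8.56 FPKM with the wild-type and 46.5 FPKM with the knockout allele, spleen 0.732 and 7.25 FPKM, and thymus 7.65 and 18.8 FPKM. Each knockout library was above its wild-type partner, and lymph node was the highest tissue of the knockout. The folds were 5.45 in lymph node (4.01 to 7.54), 10.7 in spleen (3.93 to 40.8, from 4 to 50 fragments) and 2.46 in thymus (1.74 to 3.54). Of 7 measured macrophage markers, lymph node had 3 higher, spleen 1 higher and 2 lower, and thymus 5 higher and 1 lower. The list summed to 5549 and 9547 FPKM in lymph node, 13685 and 9874 FPKM in spleen and 503 and 1243 FPKM in thymus, and its part in the SLC1A3 result was not tested.

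The arginine and lysine carriers of the SLC7 family went different ways. SLC7A1, the widely used cationic amino acid carrier, was at 30.8 and 11.9 FPKM in lymph node, 2.57-fold lower in the knockout (1.79 to 3.73). In spleen it was at 12.2 and 21.9 FPKM, 1.80-fold higher (1.5 to 2.18), and in thymus at 32.3 and 23.9 FPKM, 1.35-fold lower (1.17 to 1.56), neither a call. In the lymph node libraries the T-cell list summed to 1309 and 126 FPKM and the dividing-cell list to 732 and 217 FPKM. SLC7A2 (chromosome 17, 5191973 to 5271849), its relative found in liver and activated macrophages, was at 8.74 and 28.5 FPKM in lymph node, 3.26-fold higher (2.50 to 4.30). It was level in spleen at 26.6 and 25.8 FPKM (0.857 to 1.23 for wild type over knockout), and near the minimum in thymus at 0.798 and 2.67 FPKM (3.35-fold, 1.40 to 9.20, from 7 to 24 fragments). Arginase ARG1, which splits arginine, had 1 and 28 fragments in lymph node and 1 and 33 in thymus.

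SLC7A7 (chromosome 7, 76195774 to 76235406), a light chain that exports cationic amino acids in exchange for neutral ones, was among the 10 most abundant members. Its level was 76.1 and 91.9 FPKM in lymph node, 149.9 and 236 FPKM in spleen and 41.7 and 100.2 FPKM in thymus. All 3 knockout values were the higher ones, by 1.21-fold (1.06 to 1.38), 1.58-fold (1.45 to 1.72) and 2.40-fold (2.07 to 2.80), and only thymus met the size for a call. SLC7A9, the light chain of the renal cystine carrier, had 24 fragments in wild-type and 1 in knockout lymph node (25.1-fold lower, 4.09 to 1032), 3 in each spleen library and none in thymus. Its heavy chain SLC3A1 had at most 11 fragments in any library.

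SLC38A6, of the glutamine carrier family, lay just under the size for a call in spleen at a log2 ratio of 0.997 (17 and 34.9 FPKM) and at 0.93 in thymus (12.9 and 25.6 FPKM), and was level in lymph node (14.1 and 13.7 FPKM). Its relative SLC38A5 was at 7.69 and 12.7 FPKM in spleen and at 24 and 14.1 FPKM in thymus. SLC1A1, a second glutamate carrier, had 31 and 19 fragments in lymph node and at most 3 in the other tissues. The rest of this group, SLC6A14, SLC7A3, SLC7A4 and SLC7A14, had at most 6 fragments in any library.

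Of the metal ion carriers measured, lymph node had 2 higher of 11, spleen 1 of 10 and thymus 3 of 11, and none was called lower, beside 15.3, 8.88 and 15.2% higher among all genes. These shares rest on 1 to 3 genes. Of these 6 calls 3 had an interval that excluded equal levels. SLC11A1 (chromosome 15, 120434100 to 120446396), the phagosomal iron and manganese exporter of macrophages and neutrophils also known as NRAMP1, had most of its fragments in spleen. Its spleen level was 116 FPKM without and 345 FPKM with the knockout, 3.10-fold higher (2.37 to 4.09, from 70 to 253 fragments). Lymph node had 2 and 5 fragments and thymus 0 and 4, too few for its calls there to exclude equal levels. The neutrophil list summed to 39.4 and 1743 FPKM in the same spleen libraries and the macrophage list to 13685 and 9874 FPKM. The neutrophil list summed to 12.6 and 591 FPKM in lymph node and to 118 and 2085 FPKM in thymus. The part of either list in the SLC11A1 result was not tested. Of the genes that store and carry iron, the ferritin chains FTL and FTH1 were called higher in knockout spleen (log2 ratios 1.74 and 2.46) and transferrin TF lower (-2.65).

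SLC31A2, a copper carrier, was at 25.5 and 52.4 FPKM in thymus, 2.05-fold higher (1.65 to 2.57), at 62.2 and 79.1 FPKM in spleen and at 22.4 and 26.3 FPKM in lymph node. The zinc exporter SLC30A2 had 0 and 10 fragments in lymph node and 0 and 4 in thymus. In lymph node it was 3.19-fold higher against a floor of 3 fragments, with a counting interval from 2.14 upward. The widely expressed zinc exporters were steadier. SLC30A1 reached a log2 ratio of 0.74 in thymus (45.2 and 76.4 FPKM) and SLC30A6 one of -0.61 in lymph node (58.1 and 37.7 FPKM). SLC30A4, SLC30A5, SLC30A7 and SLC30A9 lay between -0.28 and 0.49 in all 3 tissues. The zinc-binding metallothionein MT1A, by contrast, had 0 and 92 fragments in lymph node, 0 and 1 in spleen and 0 and 37 in thymus. SLC39A7, which releases zinc from the endoplasmic reticulum, ranged from 72.7 to 97.5 FPKM with no call, and SLC41A1, a magnesium carrier, from 9.90 to 23.4 FPKM.

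Of 12 mitochondrial carriers 11 were measured in each tissue, and 2 were called higher and 1 lower in lymph node, 1 higher in spleen and none in thymus. The shares over all genes were 15.3, 8.88 and 15.2% higher and 10.3, 10 and 10.9% lower in lymph node, spleen and thymus. The mitochondrial shares rest on at most 2 genes. SLC25A3, which brings phosphate into the matrix, had the highest mean level of all 88 members, at 536 and 484 FPKM in lymph node, 534 and 547 FPKM in spleen and 903 and 746 FPKM in thymus. Its log2 ratios were -0.15, 0.03 and -0.27. SLC25A27, also called UCP4, was at 7.64 and 18.4 FPKM in lymph node (2.41-fold higher, 1.74 to 3.39), at 7.41 and 14.9 FPKM in thymus (log2 ratio 0.92) and level in spleen at 8.44 and 8.30 FPKM. The orphan carrier SLC25A35 had 5 and 24 fragments in lymph node (4.59-fold higher, 1.72 to 15.4), 11 and 23 in spleen and 10 and 21 in thymus; it overlaps RANGRF, whose log2 ratios were 0.0640, 0.28 and -0.61. SLC25A25, a carrier of ATP and phosphate, was 2.08-fold lower in knockout lymph node (1.59 to 2.74, at 42.6 and 20.4 FPKM), at a log2 ratio of -0.85 in thymus and 0.02 in spleen.

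Other mitochondrial members had no call. The citrate carrier SLC25A1 had log2 ratios of 0.50, 0.39 and -0.39 in lymph node, spleen and thymus. The pyrimidine nucleotide carrier SLC25A36 had 0.30, -0.46 and 0.27, and SLC25A39, needed for mitochondrial glutathione, 0.01, 0.49 and -0.24. The ornithine carrier SLC25A15 lay between 0.08 and 0.24, and SLC25A23, an ATP and phosphate carrier, between -0.41 and -0.02.

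Of the sugar carriers, none of 4 measured was called in lymph node or spleen, and 1 of 5 was higher in thymus. The shares over all genes were 15.3, 8.88 and 15.2% higher and 10.3, 10 and 10.9% lower in lymph node, spleen and thymus. The higher member was SLC5A4, a glucose sensor in human, with 11 and 37 fragments (3.28-fold, 1.64 to 7.14). Its neighbour SLC5A1, the sodium-coupled glucose carrier of the intestine, lies next to it on chromosome 14 with a gap of 3902 bases, and had 16 and 9 fragments in thymus. SLC5A10 was called lower in thymus on 1 and 0 fragments, with an interval that included equal levels. SLC37A4, which moves glucose 6-phosphate into the endoplasmic reticulum, was at 15.7 and 8.58 FPKM in spleen, a log2 ratio of -0.80. The lactate and pyruvate carrier SLC16A1 had no call. It was at 53.4 and 31.8 FPKM in lymph node (1.67-fold lower, 1.34 to 2.09), 54.0 and 62.1 FPKM in spleen and 444 and 376 FPKM in thymus, so both thymus libraries lay above all others.

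Of bicarbonate and anion genes, 1 was called higher and 1 lower of 2 measured in lymph node. Of ion exchangers and cotransporters, 1 of 4 was lower there. Spleen and thymus had 2 and 4 measured and no call. All genes had 15.3, 8.88 and 15.2% higher and 10.3, 10 and 10.9% lower in lymph node, spleen and thymus. The lymph node shares rest on 1 gene each. SLC4A4 (chromosome 8, 67768955 to 68177213), a sodium bicarbonate cotransporter, was at 8.43 and 19.2 FPKM in lymph node, 2.28-fold higher (1.75 to 2.99). It was at 5.27 and 4.94 FPKM in spleen and at 103 and 143 FPKM in thymus, 1.39-fold higher (1.28 to 1.5). The anion exchanger SLC26A6 was at 23 and 9.35 FPKM in lymph node, 2.46-fold lower (1.80 to 3.38), with log2 ratios of -0.16 in spleen and -0.34 in thymus. The scaffold SLC9A3R1 (chromosome 12, 6466138 to 6483539), which links membrane proteins to the cell cortex, was at 143 and 53.4 FPKM in lymph node, 2.66-fold lower (2.32 to 3.06). It was at 127 FPKM in both spleen libraries and at 511 and 379 FPKM in thymus. The related scaffold SLC9A3R2 was not called, with log2 ratios of 0.49 in lymph node, -0.48 in spleen and 0.65 in thymus. The potassium-chloride cotransporter SLC12A4 lay between -0.43 and 0.09. The lower values of SLC26A6, SLC9A3R1 and SLC25A25 stand in the same lymph node libraries as the lower T-cell and dividing-cell sums, 1309 and 126 FPKM and 732 and 217 FPKM. Whether the lymph node differences are larger than those in the other tissues was not tested.

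In the SLC35 family, which includes nucleotide-sugar carriers of the Golgi, SLC35C2 was at 60.0 and 26.3 FPKM in thymus, 2.28-fold lower (1.89 to 2.75). It was at 43.5 and 26.2 FPKM in lymph node (log2 ratio -0.71) and at 42.5 and 53.0 FPKM in spleen. SLC35D2 had 13 and 36 fragments in thymus (2.7-fold higher, 1.40 to 5.55) and between 4 and 6 in each other library. SLC35F5 was at 30.3 and 58.0 FPKM in thymus and at 64.6 and 42.2 FPKM in spleen, log2 ratios of 0.91 and -0.60, and SLC35A3 between -0.16 and 0.10 in all 3 tissues. Of the vitamin carriers SLC23A2, which takes up vitamin C, was at 40.7 and 83.0 FPKM in spleen, 2.08-fold higher (1.49 to 2.94), and between 39.2 and 54.7 FPKM in the other 4 libraries. SLC46A3 reached 8.73 and 17.5 FPKM in thymus (log2 ratio 0.92), the folate carrier SLC46A1 stood between 3.13 and 9.21 FPKM, and the riboflavin carrier SLC52A2 between 21.4 and 42.5 FPKM.

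The fatty acid carrier SLC27A1 had log2 ratios of 0.08, 0.16 and 0.91 in lymph node, spleen and thymus, and the adipocyte list summed to 114 and 9197, 29.5 and 19.2, and 465 and 1758 FPKM in the same order. SLC27A2 had 9 and 1 fragments in lymph node (9.41-fold lower, 1.3 to 412). Organic ion carriers were near the floor, with SLC22A4 called higher in lymph node on 0 and 5 fragments. SLC33A1, which brings acetyl-CoA into the endoplasmic reticulum, had log2 ratios of 0.19, -0.18 and 0.57, and SLC10A7 lay between 0.00 and 0.15. SLC34A2 and SLC44A4 had at most 8 fragments in any library.

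Levels of single transporters differed between the tissues. The tables were made per tissue, so levels across them are described per 1000000 listed fragments. Among members with at least 10 fragments, 22 were highest in wild-type thymus. Of these, 9 were at least 2-fold above either other wild-type tissue with an interval above equal levels. Besides SLC15A1 these were SLC4A4 (9.73-fold over the next tissue, 7.76 to 12.4), SLC16A1 (6.59-fold, 5.73 to 7.63), ABCB1 (5.14-fold, 4.59 to 5.76), SLC9A3R1 (2.85-fold), SLC26A6 (2.05-fold), SLC37A3, SLC7A1 and SLC38A5. In wild-type spleen there were 4 of 17, SLC9A3R2, SLC11A1, SLC31A2 and SLC7A2, and in wild-type lymph node 7 of 21, among them ABCG2 and SLC15A2. The share of all genes that meet this rule was not computed, so these counts are not read as particular to transporters. In the knockout SLC4A4, SLC16A1, SLC9A3R1, SLC26A6, SLC15A1 and SLC37A3 again led in thymus by that rule, joined by SLC35D2. For SLC7A1 and SLC35D2 this order holds by counts, whereas their FPKM were near each other in thymus and lymph node, at 32.3 and 30.8 FPKM for SLC7A1 in the wild type and at 11.13 and 10.1 FPKM for SLC35D2 in the knockout. ABCB1 led in knockout lymph node instead, at 233 per 1000000 listed fragments against 63.6 in spleen and 24.6 in thymus.

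**Figure D3:**
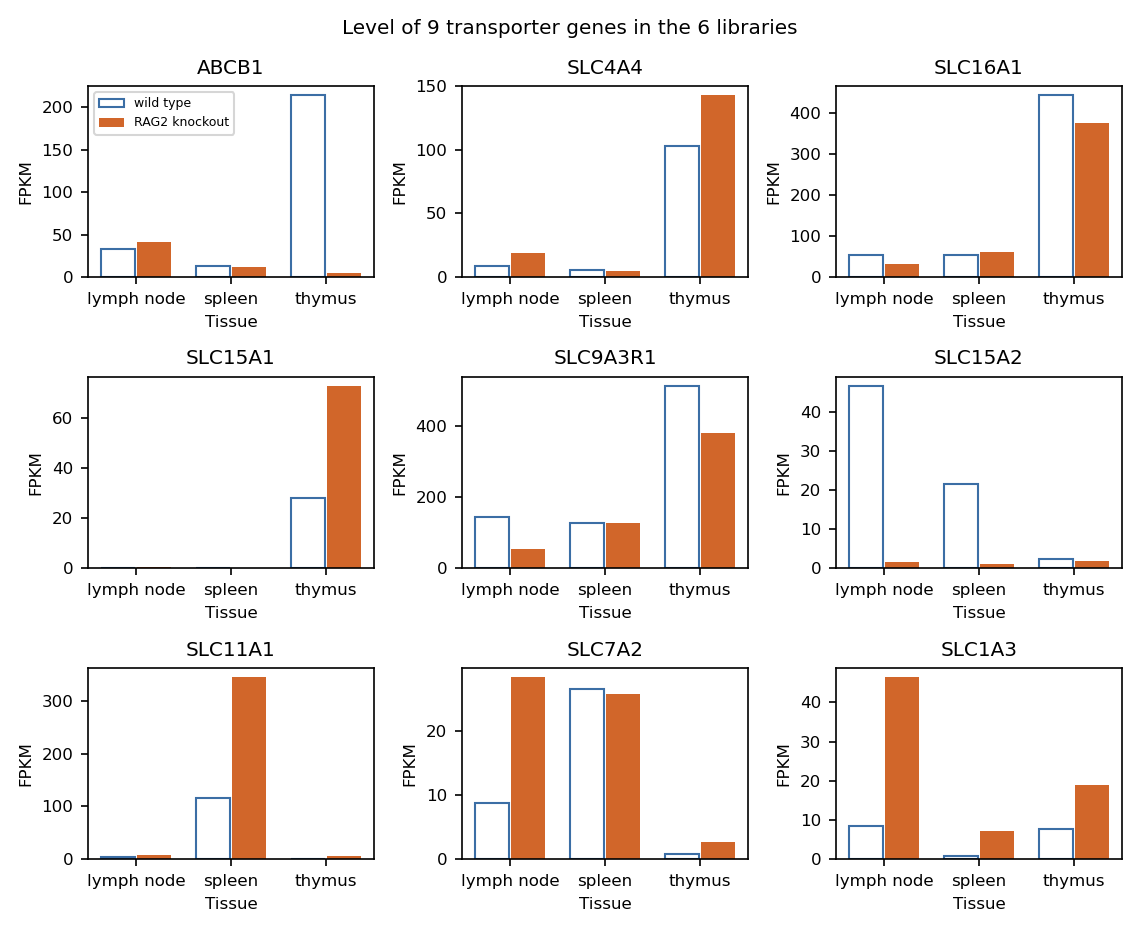
FPKM (y axis, from 0) of 9 transporter genes in lymph node, spleen and thymus, with wild type as open and RAG2 knockout as filled bars, each bar 1 library. SLC15A1 has visible bars in thymus alone (0.391 FPKM or less elsewhere), ABCB1 has its tallest bar in wild-type thymus (214 against 5.09 FPKM), and SLC15A2 has tall bars only in wild-type lymph node and spleen.

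SLC6A8 (chromosome X, 124435282 to 124452182), the creatine carrier, had the largest log2 ratio of the 88 in lymph node and in spleen and needs both units. Its level was 5.39 and 187 FPKM in lymph node, 218 and 4.29 FPKM in spleen and 10.5 and 206 FPKM in thymus. Read as FPKM, 3 libraries were high and 3 low, and the log2 ratios were 4.88, -5.37 and 4.17. The fragments behind these levels were 25 and 95, 61 and 24, and 51 and 86. Their folds were 3.64 higher in lymph node (2.32 to 5.90), 2.97 lower in spleen (1.82 to 4.98) and 1.65 higher in thymus (1.15 to 2.38). The direction was thus shared by both units in each tissue, and the size was not: FPKM per fragment differed 9.56-fold between the lymph node libraries, 17.1-fold in spleen and 11.9-fold in thymus. GATM, which makes the precursor of creatine, was called higher in thymus (23.6 and 69.9 FPKM) and in no other tissue.

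Of members with at least 10 fragments in both libraries, 52 in lymph node, 49 in spleen and 53 in thymus, SLC6A8 was the only one whose FPKM per fragment differed 2-fold or more. Among all genes that was so for 0.122, 0.121 and 0.165%. For the other members the FPKM ratio and the count ratio differed by less.

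**Figure D4:**
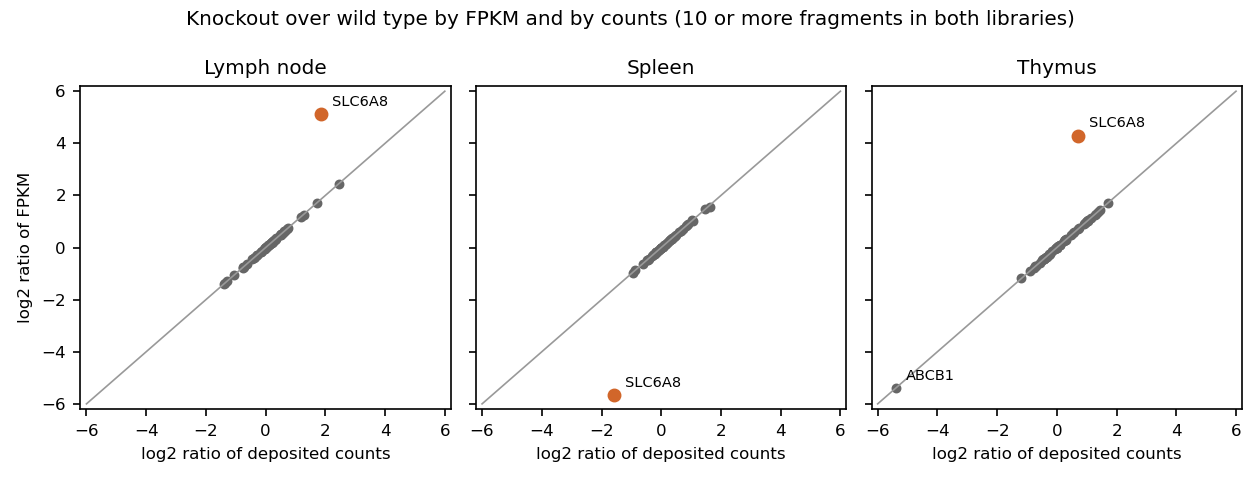
Log2 ratio of knockout over wild type by deposited counts (x axis) and by FPKM (y axis) for members with 10 or more fragments in both libraries, 1 point per gene and panel, with the line of equality. SLC6A8 (orange) lies off the line in each tissue and the other members lie close to it, ABCB1 in thymus included.

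Between tissues a further set of members changed FPKM per fragment. Taken relative to the median gene of its library and over libraries with at least 5 fragments, the value spread 2-fold or more in 4 of 61 members (6.56%) and in 56 of 2868 genes (1.95%). Besides SLC6A8 (17.1-fold) these were SLC25A51 (19.3-fold), SLC35D2 (5.51-fold) and SLC7A1 (3.88-fold). For these 3 the value changed between tissue tables and hardly within one. SLC25A51, which imports NAD into mitochondria, had 303 and 261 fragments in lymph node, 7 and 9 in spleen and 16 and 24 in thymus. Its levels of 113 and 92.2, 49.1 and 48.1, and 110 and 160 FPKM put the knockout thymus highest, where its fragments put both lymph node libraries far above all others. SLC7A1 likewise had 108 and 44 fragments in lymph node beside 456 and 346 in thymus, at 30.8 and 11.9 beside 32.3 and 23.9 FPKM. For these 4 genes the order of libraries depends on the unit. Which unit is nearer to the true level was not tested, and the cause of the change in FPKM per fragment is not known.

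**Figure D5:**
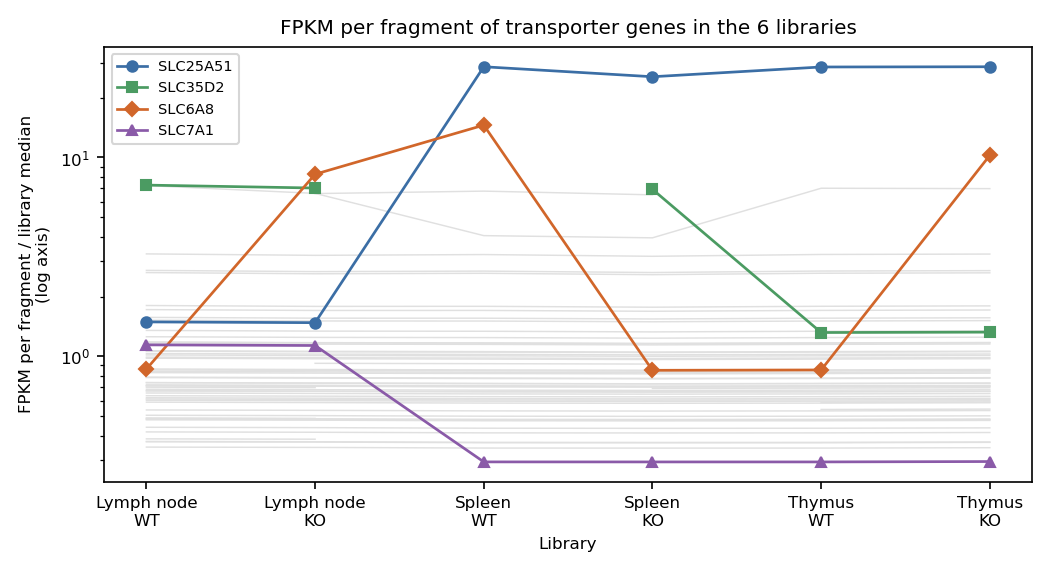
FPKM per fragment of each transporter gene divided by the median over all genes of the library (y axis, log scale) in the 6 libraries (x axis), for libraries with at least 5 fragments; each line is 1 gene and grey lines are members that spread less than 2-fold. SLC6A8 alternates between about the median (0.851 to 0.864) and 8.24 to 14.5 times it, and SLC25A51, SLC35D2 and SLC7A1 step between tissues.

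Transporters and pumps outside the symbol rule, from a list of 17 listed genes, were called higher in 4 of 13 measured genes and lower in 1 in lymph node, higher in 2 of 12 in spleen and higher in 4 of 13 in thymus. The water and glycerol channel AQP7 was higher in each tissue, with 5 and 224, 2 and 11, and 3 and 17 fragments. The prostaglandin carrier SLCO2A1 was higher in lymph node (33.7 and 84.9 FPKM) and spleen (45.5 and 97.2 FPKM), and the chloride channel CFTR lower in lymph node (49 and 4 fragments). The ABC peptide pump TAP2 was near the minimum, with 6 to 21 fragments per library, and TAP1 had at most 3. Of 23 listed partners and regulators, 7 of 19 measured were higher and 4 lower in lymph node, 3 and 2 of 18 in spleen, and 8 and 2 of 18 in thymus. Among all genes 15.3, 8.88 and 15.2% were higher and 10.3, 10 and 10.9% lower in lymph node, spleen and thymus. The adipocyte regulator PPARG had log2 ratios of 2.04 in lymph node and 1.21 in thymus, and TXNIP, which limits glucose uptake, 2.43 and 2.44. The growth regulator MYC, which promotes amino acid transport, was lower in lymph node (-1.48), as was the hypoxia regulator HIF1A (-1.14).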

How the data were processed

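RNA from 6 libraries, 1 per tissue and genotype, was analysed from 3 FPKM and 3 count tables. Per the submitters' processing notes, FastQC 0.11.9, Trimmomatic 0.39, STAR 2.7.9a, Cufflinks 2.2.1 and the build Sscrofa11.1 were used. The sources used here give no settings, annotation or strand. FPKM values were deposited by the authors per tissue table. The deposited counts are estimated counts times a constant of each library, as the values show: 98.6 to 99.3% were whole after division by that constant, within 0.02. Each was divided by it and rounded to whole fragments. Every count of a transporter gene came out whole.

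The call uses the log2 ratio of FPKM with 1 added, a minimum of 1 FPKM and a threshold of 1. A gene at 0 is set against 3 fragments. A fit of the genotype across tissues was not made, since the labels do not say whether tissues share an animal. Full values go to ABCB1 and SLC6A8, the 10 most abundant members and up to 12 called members per direction and tissue, with 10 fragments and an excluding interval; any member may be named, but results of some members are not reported here. The members, marker lists and partner list were chosen with earlier results of these data known. Positions and overlaps come from RefSeq for Sscrofa11.1. The calculations were tested on simulated data. Alternatives were other pseudocounts, minima and scalings, with edgeR 4.0.16 and DESeq2 1.42.0 used for scaling factors alone. Python 3.11.15, numpy 2.4.6, pandas 2.3.3, scipy 1.17.1, matplotlib 3.10.9 and R 4.3.3 were used.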

Additional observations from a re-analysis of the deposited data

Results flagged for a closer look

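SLC6A8 was the only one of the 88 members called in opposite directions in different tissues with intervals that excluded equal levels: its log2 ratio of FPKM was 4.88 in lymph node, -5.37 in spleen and 4.17 in thymus. With 1 library per tissue and genotype the difference between tissues was not tested. By fragment counts scaled to their total the thymus ratio was 0.83, under the size for a call.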

How the results depend on the processing

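With a pseudocount of 5 FPKM the called members numbered 3 higher and 4 lower in lymph node (9 and 7 as reported), 2 higher in spleen (4) and 4 higher in thymus (10), a step that by its construction lowers the ratios of genes at low levels. A pseudocount of 0.1 FPKM gave 5 lower in thymus in place of 3. Without an expression minimum the lymph node median was 0 in place of 0.14. Counts scaled to their total moved the thymus median to 0.20 from 0.0898, where the median of all genes moved from -4.72e-05 to 0.11. SLC6A8 in thymus had 0.83, 0.71 and 0.71 by counts with total, TMM and DESeq2 scaling, short of a call. Of the single-gene values under alternatives, 870 kept their side of the threshold, 28 lost the call and 2 gained it. These values cover 30 members, most of them picked for a call with an excluding interval and at least 10 fragments. The called members SLC22A4, SLC27A2 and SLC5A10, with fewer than 10 fragments, were left out. The 870 include values with no call under either setting, so they do not give the share of calls kept. No called value changed direction. The direction of uncalled values, many of them near 0, was not checked. No paired analysis was possible because the labels carry no replicate numbers that genotypes share. A fit of genotype with tissue as a block could be computed but was not made, since the labels do not say whether tissues share an animal. No replicate could be left out, and with 1 library per group and many members under 10 fragments, small differences were not detectable at this depth.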
